A study of Mus musculus with 8 samples.

Results

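Nonclassical MHC class I molecules were examined through 8 genes, Mr1, H2-T3, H2-T23, H2-M3, H2-Q1, H2-Q2, Fcgrt and Procr, taken by name from the 25239 genes of the deposited count table. All 8 had at least 1 count in some sample. The study compared sorted intestinal epithelial cells (IECs) of mice lacking CD1d (CD1d-KO) with those of wild-type (WT) mice by bulk RNA-seq, to learn how the loss of CD1d, and of the NKT cells that need it, changed the epithelial transcriptome. The 4 CD1d-KO samples are labelled CD1d1/2 KO, a germline deletion of Cd1d1 and Cd1d2 present in every cell, and the 4 WT samples were from mice labelled C57BL/6Jax. Mice of both groups were untreated and, per the study, 7 to 10 weeks old and not littermates. The methods state matching of age and sex between genotypes, but sex-linked counts, given below, were not matched in these 8 samples. Each sample held IECs from the proximal small intestine, gated on the epithelial protein EpCAM with CD45, CD31 and Ter119 (leukocyte, endothelial and erythroid proteins) excluded, and the series was collected in 2 experiments that the labels do not assign to samples.

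Classical class I molecules show peptides from inside the cell to CD8 T cells. The nonclassical ones share their fold, and mostly the light chain beta2-microglobulin, but vary little between individuals and bind a narrow set of ligands, or none. CD1d belongs to the same family and presents lipids. In the intestine the best known is the H2-T3 product, the thymus leukemia antigen, which is displayed by epithelial cells and binds CD8 alpha homodimers on intraepithelial lymphocytes. H2-T23 encodes Qa-1, a ligand of CD94/NKG2 receptors, H2-M3 presents formylated peptides, and Mr1 presents vitamin B metabolites to MAIT cells. Fcgrt encodes the heavy chain of FcRn, which carries IgG and albumin, and Procr encodes the endothelial protein C receptor.

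Of the 8 genes, 5 lie on chromosome 17 in the MHC region, in mm10 coordinates. H2-Q1 (35320547 to 35325099) and H2-Q2 (35342307 to 35346764) are neighbours on the plus strand, H2-T23 (36029977 to 36032701) and H2-T3 (36185571 to 36190151) are on the minus strand, and H2-M3 (37270234 to 37274485) is on the plus strand. The others are Mr1 on chromosome 1 (155127874 to 155146814, minus), Procr on chromosome 2 (155751217 to 155755478, plus) and Fcgrt on chromosome 7 (45092993 to 45103822, minus). Counts were summed over the exons of each gene, and 0 exon bases of any of the 8 genes were shared with another listed gene. Sequence similarity is a limit for 3 of them. H2-Q1 and H2-Q2 transcripts were 89.6% identical over 2046 aligned bases. H2-Q1 also had stretches of at least 200 bases with 95% identity or more to H2-K2, H2-Q7, H2-T22 and H2-T5. H2-T23 was 95.3% identical to the pseudogene H2-T11-ps over 1068 bases and had such stretches with H2-K2 and H2-T22, so reads may have been placed at the wrong copy and the counts of these 3 genes are uncertain to that extent.

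The promoters of the MHC members that varied together between samples, H2-T3, H2-T23 and H2-Q2, are shown with that of H2-M3, which holds the most motif matches. Class I promoters are known to be read through interferon-response and X and Y box elements, so 5 motifs were searched on both strands in the 250 bases before the start. They were the ISRE (GAAANNGAA), GAS (TTCNNNGAA), the Y box core (CCAAT), the X2 box (TGACG) and kappaB (GGGNNTTCC). The sequences are from RefSeq (GRCm38.p6), written along the gene's strand, with matches in capitals.
H2-T3 (chr17:36190152-36190401, minus strand): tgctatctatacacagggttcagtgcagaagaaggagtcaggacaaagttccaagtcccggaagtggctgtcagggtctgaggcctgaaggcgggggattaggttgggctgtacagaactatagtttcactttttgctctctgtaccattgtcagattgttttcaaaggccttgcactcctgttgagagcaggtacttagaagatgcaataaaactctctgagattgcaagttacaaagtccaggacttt
H2-T23 (chr17:36032702-36032951, minus strand): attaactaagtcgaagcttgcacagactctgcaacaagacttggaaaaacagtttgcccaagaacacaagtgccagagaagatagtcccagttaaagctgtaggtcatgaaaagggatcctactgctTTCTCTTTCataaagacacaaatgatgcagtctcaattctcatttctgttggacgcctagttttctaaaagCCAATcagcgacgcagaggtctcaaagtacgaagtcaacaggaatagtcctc
H2-Q2 (chr17:35342057-35342306, plus strand): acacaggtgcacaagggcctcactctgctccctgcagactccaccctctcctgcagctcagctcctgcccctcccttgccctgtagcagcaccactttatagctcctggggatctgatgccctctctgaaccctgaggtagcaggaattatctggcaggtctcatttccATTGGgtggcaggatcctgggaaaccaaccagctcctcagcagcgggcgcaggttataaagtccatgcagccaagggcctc
H2-M3 (chr17:37269984-37270233, plus strand): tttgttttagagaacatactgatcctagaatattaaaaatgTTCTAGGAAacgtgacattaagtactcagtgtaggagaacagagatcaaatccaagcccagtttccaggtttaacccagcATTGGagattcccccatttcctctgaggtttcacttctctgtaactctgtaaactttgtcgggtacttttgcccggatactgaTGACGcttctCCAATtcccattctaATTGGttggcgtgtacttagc

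The RefSeq table held promoters of 7 of the 8 genes, without H2-Q1. An ISRE match stood in H2-T23 alone among the 7, 123 bases before the start, counted to the first base of the match, on the opposite strand, and 7.13% of the 32851 promoters in the table hold one. A GAS match stood in H2-M3 alone, 209 bases before the start, against 7.02% of all promoters. The Y box core stood in 3 of the 7, H2-T23, H2-M3 and H2-Q2, against 33.8%, and the X2 box in 3 of the 7, H2-M3, Fcgrt and Procr, against 17.8%. In H2-M3 the X2 box at 46 bases and a Y box core at 36 bases before the start lay next to each other. The H2-T3 promoter held 0 matches, and kappaB was in 0 of the 7 against 4.98% of all promoters. These are letter matches, and whether any of them is bound was not measured.

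Total counts were 29743061 to 31629435 in CD1d-KO and 23610266 to 29763051 in WT samples. The deletion was visible in every sample: Cd1d1 had 8, 3, 5 and 0 raw counts (CD1d-KO 1 to 4) against 81, 70, 94 and 50 (WT 1 to 4), and fell by 4.34 ± 0.45 SE on the log2 scale by DESeq2 (adjusted p = 1.09e-18). Cd1d2 had 0, 0, 2 and 0 raw counts against 3, 3, 5 and 4, too few for an adjusted p. Y-linked genes had 6235 and 7293 counts in CD1d-KO samples 1 and 2 and at most 1 count in any other sample, so the genotypes were not balanced for them. Xist, which is expressed in female cells, stood at 68.0 and 50.5 normalised counts in CD1d-KO samples 1 and 2 and at 21980 to 35400 in the others. The labels give no sex, but read by these genes sex was not matched between the genotypes, although the methods state matching. Summed epithelial markers such as Epcam and Vil1 were alike, at 334200 to 361800 normalised counts in CD1d-KO and 325400 to 364000 in WT, with 0 of 10 called at an adjusted p under 0.05. Normalised counts are raw counts divided by the sample's DESeq2 size factor. Markers of other cells were present at lower sums and differed by genotype. Stomach markers summed to 698.9 to 1512 in CD1d-KO and 2531 to 16460 in WT, with 11 of 11 lower in CD1d-KO and 6 called. T and NK cell markers summed to 125.2 to 218.9 and 166.3 to 818.8 (11 of 12 lower, 2 called), B and plasma cell markers to 38.1 to 62.9 and 94.0 to 594.9 (6 of 6 lower, 2 called), and myeloid markers to 1015 to 1300 and 1348 to 1988 (4 of 5 lower, 2 called). Most of the myeloid sum came from Itgam, Cd14 and Cd68, with WT means of 1003, 413.9 and 160.8. Csf1r, Adgre1, Cx3cr1, Fcgr3 and Tyrobp had too few counts for an adjusted p, and Lyz2 had a higher fitted level in CD1d-KO. Endothelial and stromal markers had 0 called of 7 and of 3.

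Levels of the 8 genes were first compared in WT IECs as normalised counts per kb of exon. H2-Q2 (2345 ± 213, SD, n = 4), H2-T3 (2255 ± 102) and H2-T23 (2196 ± 186) were the highest, and their ranges overlapped, so these 3 are not ordered beyond their spread. The classical genes H2-D1, of whose exon bases 61.1% are shared with H2-L and so were not counted in full, and H2-K1 stood at 2128 and 8781 on the same scale, and B2m, the shared light chain, at 20840. Fcgrt came next among the 8 at 1182 ± 226, below H2-Q2, H2-T3 and H2-T23 in every WT sample. H2-Q1 followed at 396 ± 50.1 and H2-M3 at 88.5 ± 22.4, with no overlap between successive genes.

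Mr1 (0.949 ± 0.329) and Procr were at the limit of detection. Mr1 had 2, 2, 2 and 3 raw counts in WT samples 1 to 4, and Procr had 4, 0, 0 and 0. A library with 0 counts allows a true count of up to 3, so no order can be given between these 2 genes. The order was the same in CD1d-KO IECs except at the top, where H2-T3 (2043 ± 191 per kb), H2-Q2 (1949 ± 358) and H2-T23 (1771 ± 326) changed places within overlapping ranges. Of the summed per kb level of the 8 genes, H2-T3, H2-T23 and H2-Q2 together with Fcgrt made up nearly all in both genotypes. The share of H2-T3 was 26.7% in WT and 28.7% in CD1d-KO, that of H2-T23 was 26.0% and 24.7%, that of H2-Q2 was 27.7% and 27.1%, and that of Fcgrt was 13.9% and 14.1%.

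**Figure D1:**
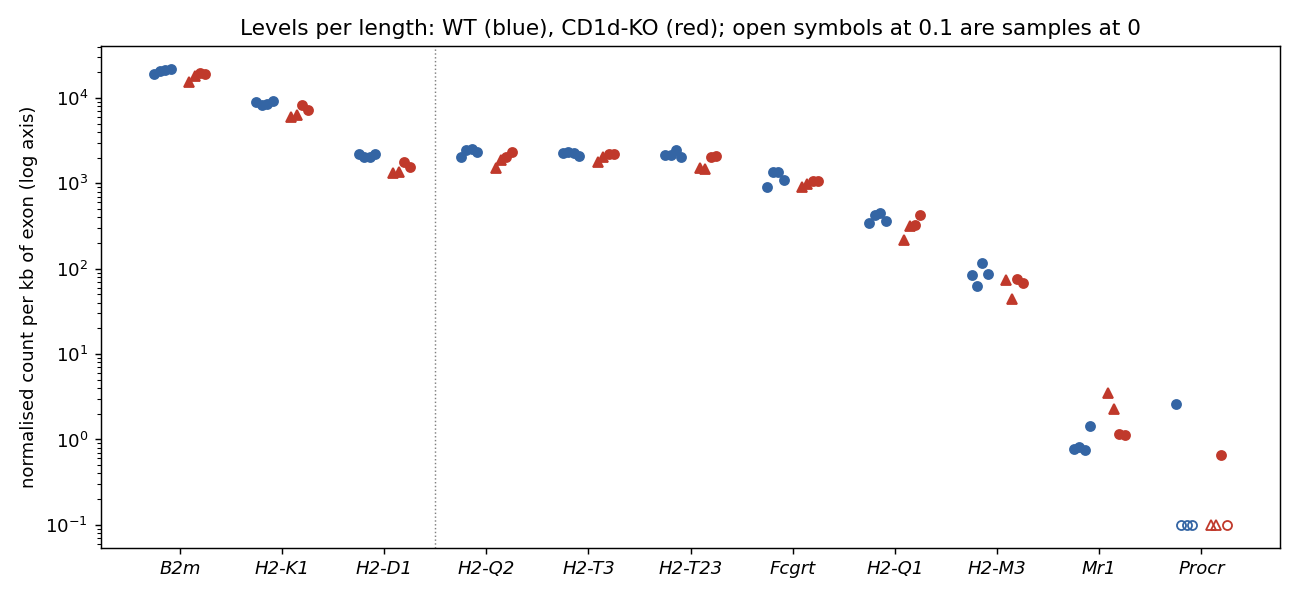
Normalised count per kb of exon on a log axis for B2m, H2-K1 and H2-D1 (left of the dotted line) and the 8 nonclassical genes, with 1 point per sample, WT in blue and CD1d-KO in red, and triangles for samples with Y-linked counts. H2-Q2, H2-T3 and H2-T23 stand at 2345, 2255 and 2196 in WT. Mr1 and Procr stand near or under 1 in WT, with open symbols for samples at 0. H2-D1 is drawn too low for its length, since 61.1% of its exon bases are shared with H2-L and were not counted in full.

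Between genotypes, none of the 8 genes was called. DESeq2 gave an adjusted p, over all 15446 genes tested, to 7 of them, and Procr had too few counts. Of the 7, 6 had lower fitted levels in CD1d-KO and Mr1 a higher one, with a median log2 fold change of -0.27 against 0.00099 over all genes tested. The threshold, an adjusted p under 0.05, was passed by 0 of 7, and edgeR's quasi-likelihood test also called 0. Over all genes DESeq2 called 622, or 4.03%, of which 367, or 2.38% of genes tested, were lower in CD1d-KO. At an unadjusted p under 0.05 there were 2 of 7, H2-T23 and H2-Q2, beside 2357 of all 15446 genes. The genotypes overlapped in all 8 genes, while 9.61% of all genes tested had no overlap.

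**Figure D2:**
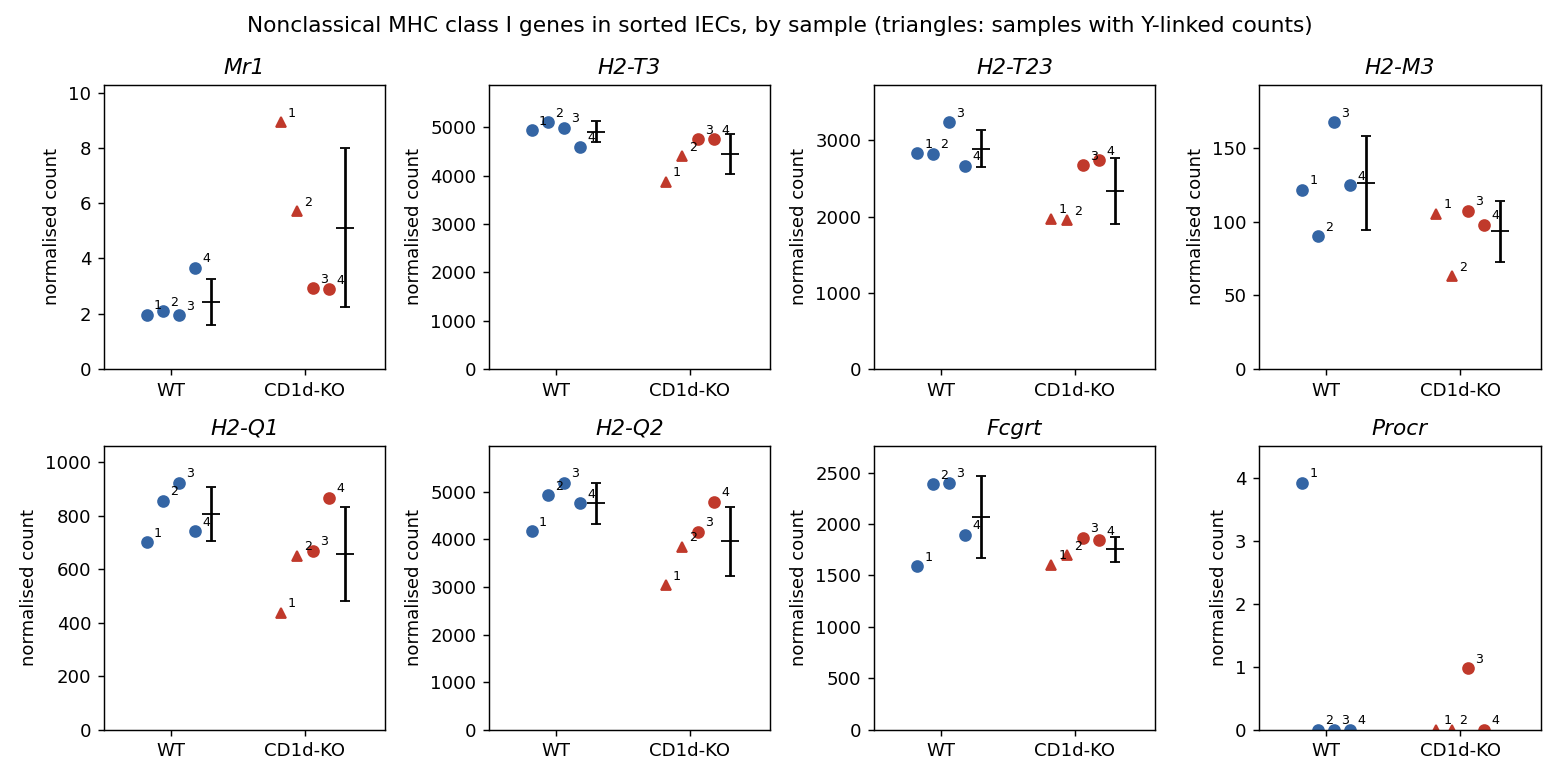
Normalised counts of the 8 genes in each sample, with the replicate number beside each point, WT in blue and CD1d-KO in red, triangles for samples with Y-linked counts, and bars for the mean ± SD of 4 samples (not drawn for Procr). CD1d-KO samples 1 and 2 are the lowest of all 8 samples for H2-T3, H2-T23, H2-Q1 and H2-Q2, and the genotypes overlap in every panel.

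Among the ligands of lymphocyte receptors, H2-T3 had normalised counts of 3878, 4402, 4760 and 4756 (CD1d-KO 1 to 4) against 4938, 5113, 4995 and 4597 (WT 1 to 4). CD1d-KO samples 1 and 2 were under every WT sample, and samples 3 and 4 lay between WT sample 4 and the other WT samples. The means were 4449 ± 416 and 4911 ± 222 (SD, n = 4 each), and the log2 fold change was -0.14 ± 0.078 SE (95% interval -0.30 to 0.01, DESeq2 adjusted p = 0.385). H2-T3 thus had the fitted difference nearest to 0 of the 7 genes.

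H2-T23 was counted at 1971, 1952, 2670 and 2737 (CD1d-KO 1 to 4) against 2831, 2827, 3241 and 2668 (WT 1 to 4). Again CD1d-KO samples 1 and 2 stood below all others, while samples 3 and 4 were both above WT sample 4. The means were 2333 ± 429 and 2892 ± 245, with a log2 fold change of -0.31 ± 0.12 SE (95% interval -0.55 to -0.07, unadjusted p = 0.0104, DESeq2 adjusted p = 0.142). It passed the threshold when a CD1d-KO sample at the WT level was left out, with DESeq2 adjusted p = 0.0442 without CD1d-KO sample 3 and 0.0304 without CD1d-KO sample 4. Over 19 alternatives its adjusted p ran from 0.0215 to 1.

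H2-M3 was the least abundant of the 6 clearly detected genes, at 105.5, 62.9, 107.5 and 97.9 normalised counts in CD1d-KO and 121.7, 90.1, 167.7 and 124.7 in WT. WT sample 2 lay under 3 CD1d-KO samples, and WT sample 3 was the highest. The means were 93.5 ± 20.8 and 126.1 ± 31.9, and the log2 fold change of -0.43 ± 0.23 SE (95% interval -0.88 to 0.02, DESeq2 adjusted p = 0.361) was the most negative of the 7, and only Mr1 had a larger SE. Mr1 had 10, 6, 3 and 3 raw counts in CD1d-KO samples 1 to 4, against 2 or 3 in each WT sample. Its log2 fold change of 1.11 ± 0.86 SE had a 95% interval from -0.58 to 2.80 (DESeq2 adjusted p = 0.611), so a difference of Mr1 was not detectable at this depth. The higher Mr1 counts were in the 2 samples with Y-linked counts.

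H2-Q1 and H2-Q2 are class I genes of the Q region whose ligands are little known. H2-Q2 had normalised counts of 3041, 3844, 4161 and 4792 (CD1d-KO 1 to 4) against 4171, 4931, 5194 and 4761 (WT 1 to 4). CD1d-KO samples 1, 2 and 3 were below all WT samples, with sample 3 only just so, and sample 4 was above 2 of them. The means were 3959 ± 728 and 4764 ± 433, with a log2 fold change of -0.27 ± 0.12 SE (95% interval -0.51 to -0.03, unadjusted p = 0.0295, DESeq2 adjusted p = 0.252). Without CD1d-KO sample 4 the DESeq2 adjusted p was 0.0344, and over 19 alternatives it ran from 0.0185 to 0.858.

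H2-Q1, less abundant per kb than its neighbour, was counted at 437.2, 650.5, 669.6 and 867.9 in CD1d-KO and at 702.0, 856.2, 923.9 and 743.3 in WT. It ordered the samples almost as H2-Q2 did, with CD1d-KO sample 1 lowest and WT sample 3 highest. The means were 656.3 ± 176 and 806.3 ± 102, and the log2 fold change was -0.30 ± 0.17 SE (95% interval -0.63 to 0.04, DESeq2 adjusted p = 0.415).

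Fcgrt and Procr bind soluble proteins in place of lymphocyte receptors. Fcgrt had normalised counts of 1605, 1697, 1865 and 1840 (CD1d-KO 1 to 4) against 1591, 2384, 2401 and 1896 (WT 1 to 4). The lowest sample of all was WT sample 1, and WT samples 2 and 3 stood above the rest. The means were 1752 ± 123 and 2068 ± 395, with a log2 fold change of -0.24 ± 0.12 SE (95% interval -0.48 to 0.0046, DESeq2 adjusted p = 0.343). Without WT sample 1 the log2 fold change was -0.35 and the DESeq2 adjusted p was 0.0295, and over 19 alternatives the adjusted p ran from 0.0295 to 0.992. Procr had 1 count in CD1d-KO sample 3, 4 counts in WT sample 1 and 0 in the other 6 samples, so no fold is given.

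CD1d-KO samples 1 and 2, the samples with Y-linked counts, were the lowest 2 of all 8 samples for 4 of the 8 genes, H2-T3, H2-T23, H2-Q1 and H2-Q2. For Mr1 they were the highest 2, whereas for H2-M3 the lowest were CD1d-KO sample 2 and WT sample 2, and for Fcgrt WT sample 1 and CD1d-KO sample 1. The mean of these 2 samples differed from the WT mean by -32.2% for H2-T23, -27.7% for H2-Q2, -32.6% for H2-Q1 and -15.7% for H2-T3. The mean of CD1d-KO samples 3 and 4 differed by -6.50%, -6.04%, -4.66% and -3.10%, respectively.

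For H2-M3 the same pairs differed from WT by -33.2% and -18.5%, and for Fcgrt by -20.2% and -10.4%. With CD1d-KO samples 1 and 2 left out, the log2 fold changes were -0.10 for H2-T23 (95% interval -0.29 to 0.09), -0.09 for H2-Q2, -0.07 for H2-Q1, -0.04 for H2-T3, -0.30 for H2-M3 and -0.16 for Fcgrt. Their DESeq2 adjusted p ran from 0.79 to 0.937, and 2.57% of the genes tested in that fit were called. A fit of all 8 samples with a term for Y-linked counts, chosen after seeing the data, gave nearly the same values, at -0.10 ± 0.090 SE for H2-T23, -0.09 for H2-Q2, -0.07 for H2-Q1, -0.05 for H2-T3, -0.30 for H2-M3 and -0.16 for Fcgrt, with DESeq2 adjusted p from 0.721 to 0.925. All WT samples lacked Y-linked counts, so no comparison of genotypes was possible among samples that had them.

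The stomach and leukocyte markers given above also separated the genotypes in part. With a stomach marker score, the mean centred log2 level of the list in each sample, as a covariate, 5 of the 6 log2 fold changes turned positive, at 0.05 for H2-T23, 0.09 for H2-M3, 0.29 for H2-Q1, 0.17 for H2-Q2 and 0.01 for Fcgrt, with H2-T3 at -0.06 and 0 called. The score was higher in each WT sample than in any CD1d-KO sample, so the fit had little left with which to estimate genotype. With a leukocyte score in its place all 6 had a negative fitted sign and 0 were called. In bulk samples, fewer cells of a type and less RNA per cell cannot be told apart.

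**Figure D3:**
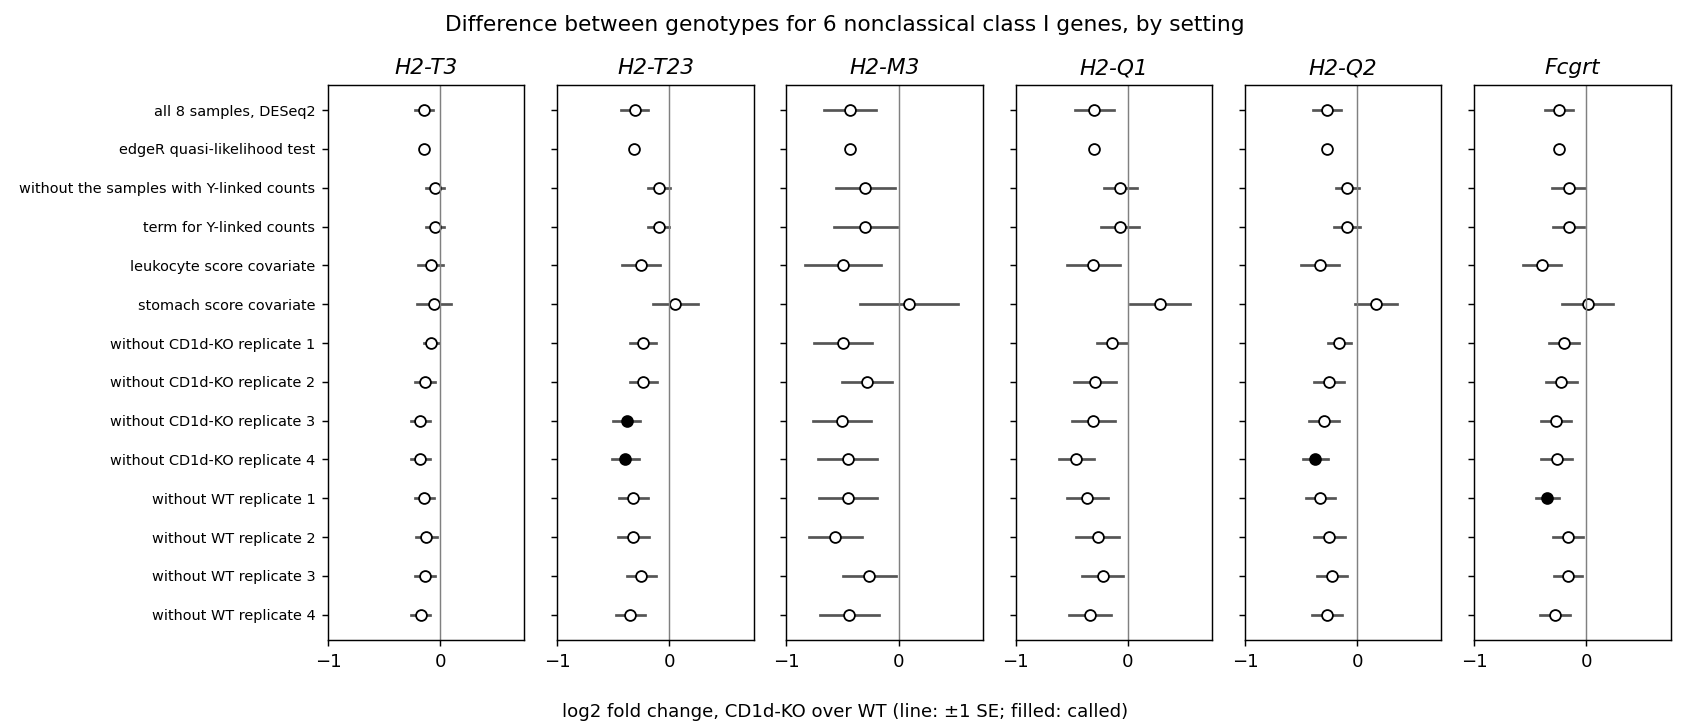
Fitted log2 fold change of CD1d-KO over WT for the 6 genes averaging at least 50 normalised counts, under each setting, with lines of ±1 SE where the tool gives one and filled points where the adjusted p is under 0.05. Points lie nearer 0 without the samples with Y-linked counts than with all 8, at -0.10 for H2-T23 and -0.04 for H2-T3, and 5 of 6 lie above 0 with the stomach score.

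The genes also resembled each other across samples in differing degree. The values that follow are Pearson r of log2(normalised count + 1) over the 8 samples, given as a description, since all points share libraries and size factors. H2-Q1 and H2-Q2 were the most alike of the 15 pairs, at 0.98, and still 0.98 after centring on genotype. Their similar sequences can exchange reads, which is a limit. Centring on genotype also leaves in place the difference between CD1d-KO samples with and without Y-linked counts. H2-T3, H2-T23, H2-Q1 and H2-Q2 were all lowest in those with them. H2-T3 stood at 0.87 with H2-T23, 0.89 with H2-Q1 and 0.88 with H2-Q2, and H2-T23 at 0.82 and 0.85 with the same 2 Q genes. Fcgrt lay between 0.64 and 0.76 with these 4 genes. H2-M3 stood apart, at 0.71 with H2-T23 and 0.27 to 0.37 with the others.

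Over all 11720 genes averaging at least 50 normalised counts, the genes most like H2-T3 were Trim15, Epha2 and Btnl2, a butyrophilin-like gene, at 0.98, 0.98 and 0.97. Those most like H2-T23 were Sec61a1, a subunit of the translocon that passes proteins into the endoplasmic reticulum, Slc25a22, a mitochondrial glutamate carrier, and Ifit1bl1 of the interferon-induced Ifit family, each at 0.98. H2-Q1 and H2-Q2 had each other first. They were followed for H2-Q1 by A330035P11Rik and Apol10a at 0.97 and 0.96, and for H2-Q2 by D3Ertd751e and Apol10a, both at 0.97. H2-M3 was most like Kctd11, Eml1 and Sft2d1 at 0.97, 0.96 and 0.95, and among the genes most like Fcgrt were Samd4b and Efhd2 at 0.97 and 0.96. Each is among the highest of 11720 values over only 8 samples, where high r can arise without any relation. A shared regulation was not tested.

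The rest of the class I family and its machinery were described by lists, chosen with earlier results of these data known. Their counts of called genes are a description, beside 4.03% of all genes tested called and 2.38% called lower. Of 38 other class I-like genes in the table, 15 were tested, 11 had a lower and 4 a higher fitted level in CD1d-KO, and 3 were called, all lower (median log2 fold change -0.27). One is Cd1d1 itself. H2-Q4, a Q region gene near H2-Q2, had normalised counts of 1230, 1244, 1388 and 1393 in CD1d-KO and of 2012, 1851, 1601 and 2048 in WT, with no overlap, and fell by 0.51 on the log2 scale (SE 0.093, DESeq2 adjusted p = 6.27e-06), a call made in 17 of 19 alternatives and lost with the stomach and the leukocyte marker score as a covariate, at 0.208 and 0.0749. H2-Q5 was low, at 4.8 to 9.8 in CD1d-KO and 14.7 to 45.6 in WT, and fell by 1.85 on the log2 scale (DESeq2 adjusted p = 0.0081). Its call was lost without CD1d-KO sample 2, WT sample 3 or WT sample 4, at adjusted p of 0.0655, 0.111 and 0.0524, without the samples with Y-linked counts, at 0.138, with a term for them, at 0.135, and by edgeR, at 0.0543. It was also lost with a replicate block, at 0.0536, with the leukocyte score, at 0.0682, and with the stomach score. With the stomach score the log2 fold change was -0.50 (adjusted p = 0.923). H2-Q7 and H2-Q9 overlap each other over 99.0% and 100% of their exon bases and were at 0 in all samples, as read pairs overlapping several genes were not counted. H2-T9, whose exons lie wholly within those of H2-T22, was likewise at 0.

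Of the 16 genes for classical class I molecules and peptide loading, 15 had a lower fitted level in CD1d-KO and 8 were called, all lower (median log2 fold change -0.33). Over all genes tested 2.38% were called lower. They were the heavy chains H2-K1, which fell by 0.34, and H2-D1, by 0.50, the peptide transporter subunit Tap1, by 0.68, the loading factors Tapbp, by 0.24, and Tapbpl, by 0.38, and the proteasome genes Psmb9, by 0.69, Psmb10, by 0.39, and Psme2, by 0.33, all on the log2 scale. B2m, which all these heavy chains need, had a log2 fold change of -0.21 (DESeq2 adjusted p = 0.155). Of these 8 genes 3 were also called without the samples with Y-linked counts, 3 by edgeR, and 0 with either marker score as a covariate. Leaving out 1 sample cost calls of H2-K1, Tapbp, Tapbpl, Psmb9 or Psme2, with 4 of the 8 called without CD1d-KO sample 2, 5 without CD1d-KO sample 1 or WT samples 1, 2 or 4, and 6 without WT sample 3.

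**Figure D4:**
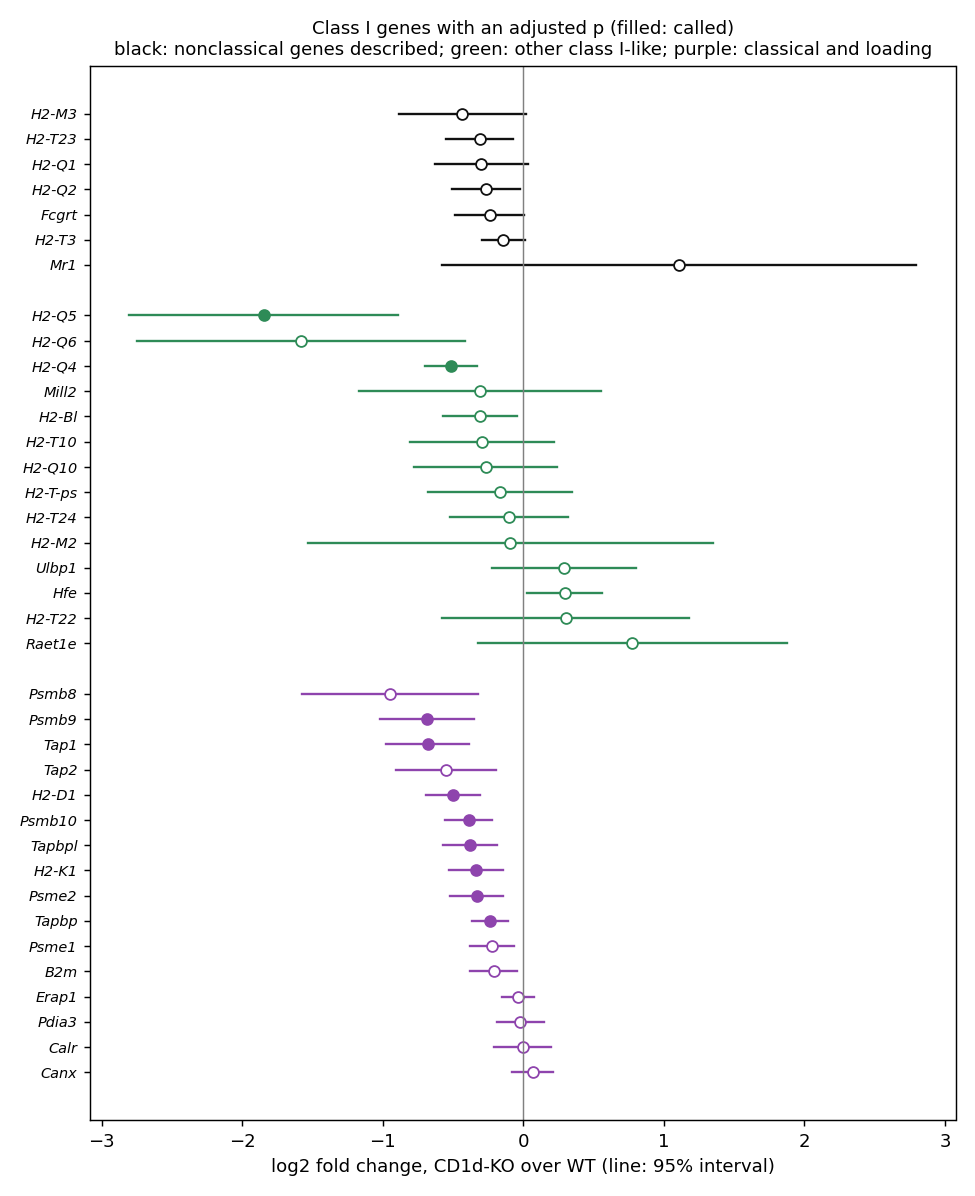
Log2 fold change of CD1d-KO over WT with its 95% interval for the nonclassical genes described (black), other class I-like genes without Cd1d1 (green) and classical class I and loading genes (purple), filled where the DESeq2 adjusted p is under 0.05. None of the black points is filled, against H2-Q4 and H2-Q5 in green and 8 in purple.

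Whether the nonclassical genes differed less than the classical ones was tested on their ratios within each sample, a comparison chosen after the values were seen. For each of the 6 clearly detected genes the log2 ratio to H2-K1 and to H2-D1 was compared between genotypes by an exact two-sided permutation test, 12 tests in all, whose smallest possible p is 0.0286. The ratio of H2-T3 to H2-D1 was 0.61 to 0.90 in CD1d-KO and 0.26 to 0.54 in WT, a difference of 0.36 without overlap (exact permutation p = 0.0286, 0.343 after Benjamini-Hochberg adjustment). H2-D1 was itself called lower, at -0.50, and H2-T3 was nearest to 0, at -0.14, so this separation restates values already seen and is no independent support. The ratio of H2-T3 to H2-K1 differed by 0.20 (exact permutation p = 0.0857, adjusted 0.48). For the other 10 ratios the exact permutation p ran from 0.171 to 0.886. With this smallest p, an adjusted value under 0.05 could not be reached unless most of the 12 ratios separated the genotypes fully, so the adjusted values neither show nor exclude a difference between nonclassical and classical genes.

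Among 22 regulators of class I transcription, 13 had a lower and 9 a higher fitted level, and 5 were called (median log2 fold change -0.07). Nlrc5, the class I transactivator, had 8.9 to 120.2 normalised counts in CD1d-KO and 187.6 to 392.4 in WT, and fell by 2.15 on the log2 scale (DESeq2 adjusted p = 0.0453). Irf1, Irf9 and Stat2, factors of the interferon response, fell by 0.33, 0.45 and 0.55, and Ifngr1, a chain of the IFN-gamma receptor, rose by 0.26 (DESeq2 adjusted p = 0.000465, 9.16e-06, 1.94e-05 and 0.00462). The Nlrc5 call was lost in 6 of the 8 fits that left out 1 sample, namely CD1d-KO sample 2 or 4 or any WT sample, with adjusted p of 0.0845 to 0.213, and that of Ifngr1 without CD1d-KO sample 2, at 0.0548. Without independent filtering the Nlrc5 call was lost too, at 0.056. Without the samples with Y-linked counts 3 of the 5 were called, Irf1 and Ifngr1 being at 0.0647 and 0.288. A term for Y-linked counts also left 3 of the 5 called, with Nlrc5 and Ifngr1 at 0.231 and 0.174. With the stomach or the leukocyte score 0 of the 5 were called, with log2 fold changes of -1.50 for Nlrc5 and 0.08 for Ifngr1 under the stomach score, and edgeR did not call Ifngr1 (adjusted p = 0.0644).

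Of the receptors that lymphocytes use for these molecules, 3 were tested of 10 in the table. Cd8a, whose homodimer binds the H2-T3 product, had 1.0 to 6.7 normalised counts in CD1d-KO and 67.7, 18.9, 12.6 and 2.4 in WT samples 1 to 4, and fell by 2.58 on the log2 scale (DESeq2 adjusted p = 0.0435). Without WT sample 1, which also had the highest T and NK marker sum, the log2 fold change was -1.42 (adjusted p = 0.514), and leaving out CD1d-KO sample 1, 2 or 3 or WT sample 2 also ended the call, at 0.0549 to 0.158. Cd8a was also not called without the samples with Y-linked counts or with a term for them (DESeq2 adjusted p = 0.319 and 0.321). The same held with a replicate block, without independent filtering and with the stomach score, at 0.171, 0.0538 and 0.504, and edgeR gave it no value. Klrd1, the CD94 chain of the Qa-1 receptors, had a log2 fold change of -2.43 (adjusted p = 0.386) and Cd160 one of 0.21 (adjusted p = 0.921). These are lymphocyte genes, in cells gated without CD45. With the leukocyte score as a covariate, a score that holds Cd8a itself, the log2 fold changes turned to 0.23 for Cd8a and 0.54 for Klrd1 (DESeq2 adjusted p = 1 for both).

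The genes listed around FcRn and the protein C receptor hold partners and also genes of IgA transport and coagulation, such as Pigr, Jchain and Tfpi. Of 9 tested, 4 had a lower and 5 a higher fitted level, and 4 were called (median log2 fold change 0.02). Pigr, the receptor that carries IgA across the epithelium beside the IgG carried by FcRn, had 196200 to 208300 normalised counts in CD1d-KO and 227900 to 246500 in WT, and fell by 0.23 on the log2 scale (SE 0.047, DESeq2 adjusted p = 0.000105). Jchain, which joins IgA dimers and is a plasma cell gene, had 1.8 to 16.3 and 20.4 to 455.5, and fell by 4.47 (adjusted p = 0.00552). Tfpi and Pros1, both restraints of coagulation, rose by 0.56 (adjusted p = 0.00026) and 0.35 (adjusted p = 0.0469). The Pros1 call was lost without any 1 of CD1d-KO samples 1 to 3 or WT samples 1 to 4, at adjusted p of 0.0502 to 0.237, and those of Pros1 and Jchain without the samples with Y-linked counts, at 0.463 and 0.164. By edgeR Pros1 and Jchain were not called (adjusted p = 0.117 and 0.0572). With the stomach score 0 of the 4 were called, with Tfpi at 0.15 and Pros1 at 0.10, and with the leukocyte score, which holds Jchain itself, Tfpi alone was called and Jchain was at -1.54.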

How the data were processed

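The authors deposited raw counts of read pairs per gene, made with featureCounts 1.6.4 per the file headers over exons, without strand, from primary alignments, with pairs overlapping several genes left out. Their methods name poly(A) libraries and HISAT2 alignment to GRCm39, while the header names an mm10 annotation, so coordinates are mm10. Reads had no molecular identifiers, and errors of counts cover sampling only.

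CD1d-KO (n = 4) and WT (n = 4) were compared with DESeq2 1.42.0 (R 4.3.3), with genotype as the only term, its default size factors, its rule for outlying counts and independent filtering (mean normalised count 2.41). P-values were adjusted by Benjamini-Hochberg over all genes tested and called under 0.05. edgeR 4.0.16, other size factors and filters, marker scores, left-out samples and a replicate block were alternatives, and a term for Y-linked counts was added after seeing the data. Whether same-numbered samples pair was checked. Both tests were run on simulated data, where DESeq2 made more false calls than its threshold states and edgeR did not, so edgeR's calls are given beside those of DESeq2. Replicates were compared by chi-square (9.75 to 37.2 per degree of freedom), so none was a copy. Per the methods, each sample came from a separate mouse. Transcripts (GENCODE vM39) were aligned with blastn 2.17.0.

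Named genes were the 8 members, Cd1d1 and Cd1d2, in each pathway list the called genes and the 3 with the smallest p, and the 3 genes most like each member that averaged at least 50 normalised counts, of which 1 gene is not reported here. Members and lists were chosen with earlier results of these data known.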

Additional observations from a re-analysis of the deposited data

Results flagged for a closer look

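Of 64 groups of 4 samples examined, 5 had a sample far from the other 3. The rule was Dixon's 95% critical value for the gap to the nearest sample over the group's range. For normally distributed values chance alone flags about 1 group in 20. That rate does not hold for groups near 0 counts. Where 3 samples are at 0 and 1 is above, the gap is the whole range. Mr1 in WT sample 4 stood at 3.67 normalised counts against 1.94 to 2.10 in the other WT samples, which is 3 raw counts against 2. Procr stood at 3.93 in WT sample 1 and at 0.978 in CD1d-KO sample 3, against 0 in the other samples of each genotype. Cd1d2 stood at 1.96 in CD1d-KO sample 3 against 0, from 2 raw counts. Tapbp stood at 5348 in WT sample 1 against 5603 to 5618.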

How the results depend on the processing

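DESeq2 called 622 genes with all samples, 228 by edgeR's test (224 in common), 372 with both Y-positive samples left out (248 in common), 426 with a term for Y-linked counts, added after seeing the data (279 in common), 101 with the stomach score (63 in common) and 113 with the leukocyte score (98 in common). Leaving out 1 sample gave 323 (CD1d-KO sample 2) to 646 genes (CD1d-KO sample 3), with 406 without WT sample 1 and 385 without WT sample 2. Of the 8 nonclassical genes, 0 to 2 were called when 1 sample was left out, 1 without CD1d-KO sample 3 or WT sample 1 and 2 without CD1d-KO sample 4. The signs of H2-T23 (0.0531), H2-M3 (0.0894), H2-Q1 (0.29), H2-Q2 (0.17) and Fcgrt (0.0134) turned with the stomach score, those of Cd8a (0.23) and Klrd1 (0.54) with the leukocyte score, and that of Cd160 without CD1d-KO sample 4 (-0.16, with 0.45 as the highest value when 1 sample was left out). The cause was not tested. With a replicate block, 569 genes and 2 of the 8 were called, H2-T23 (-0.32, adjusted p = 0.0215) and H2-Q2 (-0.28, adjusted p = 0.0185). Deviations of same-numbered samples correlated at 0.20, 0.0044, 0.19 and -0.03 over 13695 genes. CD1d-KO samples 1 and 3 were most like the WT samples of the same number, and CD1d-KO samples 2 and 4 were not. The numbers thus did not pair the samples throughout, and whether some of them are paired cannot be told from this check. Among the log2 fold changes of the 8 genes other than Procr, 113 values under alternatives kept direction and side of the threshold, 6 newly passed it and 5 turned. Procr had no such values, and Mr1 had them in 10 alternatives. Of the other named genes, 307 kept both, 115 lost the call and 3 turned. Mr1 and Procr are limited by depth.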
